A study of Homo sapiens with 6 samples.

Results

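Chemokines are small secreted proteins that draw leukocytes along a gradient, and 10 genes for chemokines that epithelial cells can make were followed here: CXCL1, CXCL2, CXCL3, CXCL5, CXCL6, CXCL8, CXCL14, CXCL16, CCL20 and CCL28. All probe sets of the array whose gene symbol is one of these were taken, which gave 19 probe sets of 54674. The family was selected on these same arrays, with the falls of CXCL8 and CCL20 under CompE already known, so its differences between the groups are given as a description and carry no test. RNA was measured in LS174T, a human colon adenocarcinoma line, after 48 h with CompE at 250 nM or with its solvent DMSO. Each condition had 3 cultures, each on 1 Affymetrix Human U133 Plus 2.0 array. CompE is commonly used as a short name for Compound E, which blocks gamma-secretase, the protease that frees the intracellular domain of Notch receptors, although the labels spell out no more than the abbreviation. A single line, dose and time were studied, and the labels name no other agent for either group.

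CXCL1, CXCL2, CXCL3, CXCL5, CXCL6 and CXCL8 carry the amino acid motif glutamate-leucine-arginine (ELR) before their first cysteines and attract neutrophils through the receptors CXCR1 and CXCR2. In gut epithelium they are switched on quickly by interleukin 1, tumour necrosis factor and bacterial products, largely through the transcription factor NF-kB acting together with AP-1 and C/EBP factors. CCL20 is induced in the same way and attracts CCR6-bearing lymphocytes and dendritic cells to the follicle epithelium. CXCL14, CXCL16 and CCL28 lack the ELR motif and are made more constantly: CXCL16 is a membrane-bound ligand of CXCR6 that proteases shed, and CCL28 calls plasma cells to mucosa through CCR10.

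RefSeq promoter windows (assembly GRCh38.p14, from 250 bases before to 50 bases after the start site) were available for 9 of the 10 members, with CXCL16 the exception. The windows are shown for letters that NF-kB is known to bind. The part of these letters in the changes under CompE was not tested. The letters GGNNTTTCC, sought on both strands, were present in 7 of the 9 genes and in 2198 of all 35116 windows of the table, or 6.26%. The 7 genes were CXCL1, CXCL2, CXCL3, CXCL5, CXCL6, CXCL8 and CCL20. The stretch around each match is printed 5′ to 3′ on the strand of the gene, with the matched letters in capitals. The stretches of the paralogues CXCL1 (chr4:73869285-73869378, plus strand), CXCL2 (chr4:74099210-74099302, minus strand) and CXCL3 (chr4:74038704-74038797, minus strand) each hold the match in 2 copies.
CXCL1: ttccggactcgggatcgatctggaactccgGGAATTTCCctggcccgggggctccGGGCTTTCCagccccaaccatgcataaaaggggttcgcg
CXCL2: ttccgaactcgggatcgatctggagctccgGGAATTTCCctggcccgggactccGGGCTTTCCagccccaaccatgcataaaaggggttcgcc
CXCL3: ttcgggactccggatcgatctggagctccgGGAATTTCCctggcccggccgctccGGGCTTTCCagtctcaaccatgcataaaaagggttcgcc

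The first copy ends 70, 69 and 70 bases before the start site in CXCL1, CXCL2 and CXCL3, and the second copy ends 45 bases before it in all 3 genes. The pair CXCL5 (chr4:73998729-73998797, minus strand) and CXCL6 (chr4:73836559-73836627, plus strand) hold 1 copy each.
CXCL5: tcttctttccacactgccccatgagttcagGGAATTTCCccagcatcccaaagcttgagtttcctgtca
CXCL6: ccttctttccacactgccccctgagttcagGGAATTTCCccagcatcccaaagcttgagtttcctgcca

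CXCL8 (chr4:73740427-73740516, plus strand) holds 1 copy as well, and upstream of it the AP-1 letters TGANTCA, also in capitals. In CCL20 (chr2:227813733-227813801, plus strand) the match lies on the opposite strand, so that its letters read reversed and complemented.
CXCL8: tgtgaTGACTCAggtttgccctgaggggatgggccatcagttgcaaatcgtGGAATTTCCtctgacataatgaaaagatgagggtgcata
CCL20: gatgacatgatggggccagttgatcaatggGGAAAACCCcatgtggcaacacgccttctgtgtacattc

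The letters GGAATTTCC were the same in all 6 ELR members, at 91 to 69 bases before the start site. Over the 300-base windows, CXCL1 was identical to CXCL3 at 82.5% of aligned positions and CXCL5 to CXCL6 at 83.1%. CXCL2 was identical to CXCL1 at 69.7% and to CXCL3 at 73.7%. CXCL8 was identical to the other ELR members at 41.8% to 43.0%. Against CXCL14 and CCL28, which lack the ELR motif, CXCL8 stood at 43.3% and 44.4%. AP-1 letters were present in CXCL8 and CXCL14 and in 7.71% of all windows. The letters TGGGAA, which RBPJ, the DNA-binding partner of Notch, is known to bind, were present in CXCL5, CXCL6, CCL20 and CXCL14 and in 24.0% of all windows. No matches of different motifs overlapped. CXCL1, CXCL2, CXCL3 and CXCL8 had no TGGGAA in these windows, and CCL28 had none of the 3 motifs in either of its windows, which says only that those letters are not there.

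**Figure D1:**
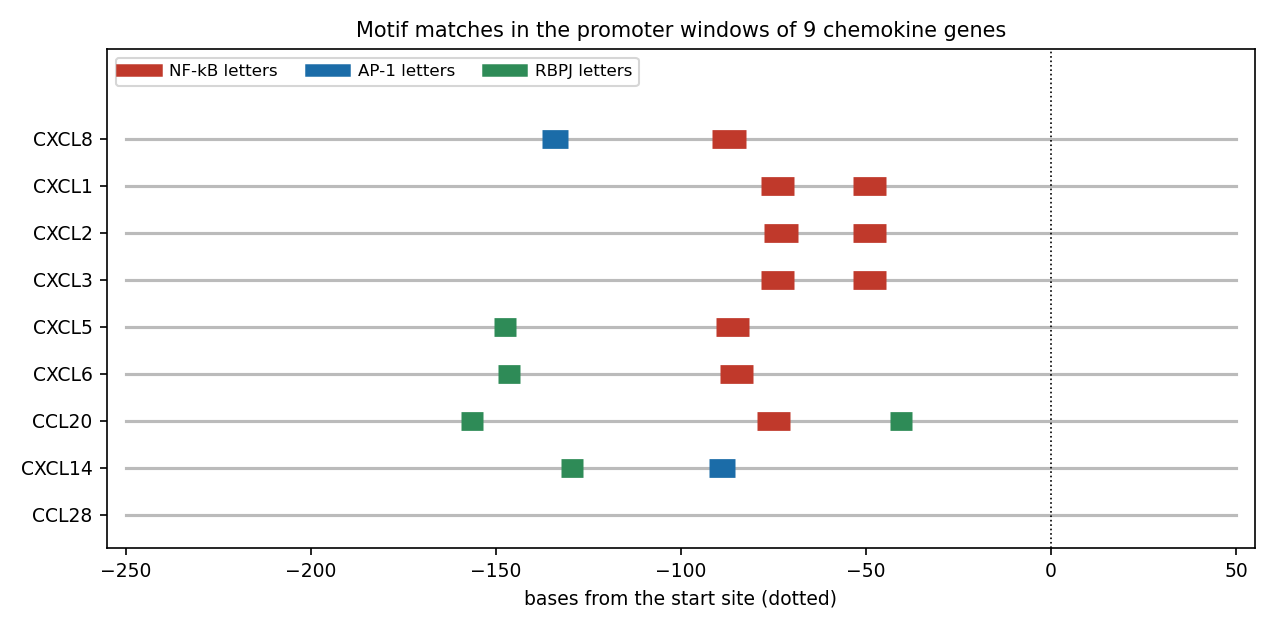
Each line is a promoter window of 1 chemokine gene, drawn to scale from 250 bases before to 50 bases after the start site, and coloured blocks mark letters that match the NF-kB, AP-1 or RBPJ motif on either strand. The NF-kB letters of the 6 ELR genes lie at similar distances from the start site, CXCL14 and CCL28 have none, and CCL28 is shown as a single line with no match.

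The arrays were close to each other in brightness, with median probe set intensities of 36.9 to 38.6, and arrays of the same group correlated at 0.987 to 0.988 over probe sets past the filter, against 0.981 to 0.985 between groups. HES1, a direct Notch target used as a check on the treatment, had 307, 306 and 256 in CompE cultures, against 804, 872 and 756 in DMSO cultures, and fell by 1.49 on the log2 scale (SE 0.10, limma adjusted p = 0.0020). The hybridisation controls, which are added in equal amount to each array, were 0.14 log2 brighter on the CompE arrays. The ratio of 3′ to 5′ ACTB signal was 1.49 to 1.53 on CompE arrays and 1.42 to 1.46 on DMSO arrays. The part of either in the values that follow was not tested. All 14 colon epithelial markers (among them EPCAM, CDH1 and VIL1) lay above the level of the array's Bacillus probe sets, which human RNA does not hold. That level was an intensity of 45.7, and a gene dimmer than it in both groups is called below background. PTPRC, the pan-leukocyte marker, and PDGFRB and CDH5, markers of stroma and vessels, were too dim to be tested, but 7 of the 17 leukocyte markers on the array, and 7 of the 17 fibroblast and endothelial markers, had a probe set above that level in at least 1 group. Among them, picked with their values in view, CD53 averaged 166 in CompE and 211 in DMSO, and COL1A1 averaged 99.2 in CompE and 96.0 in DMSO. In a bulk culture, fewer cells of a kind and less RNA per cell cannot be told apart.

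Of the 10 genes, 6 were above background in at least 1 group, namely CXCL1, CXCL2, CXCL3, CXCL8, CCL20 and CXCL16, and 7 of the 19 probe sets were. A filter on dim probe sets kept 9 of the 19, which belong to 7 genes, and CXCL5, CXCL6 and CXCL14 had no probe set past it. Nearest the limit, the CXCL2 probe set 230101_at was kept at a mean log2 intensity of 4.76, and the CCL28 probe set 224240_s_at was left out at 4.16. Where several probe sets of a gene were kept, the brightest stood for it. A gene was called where the adjusted p of the fit over all genes was under 0.05, which held for 7.14% of the 14308 genes tested. Calls towards lower signal in CompE held for 2.57% of them and calls towards higher signal for 4.56%. Among the chemokines 5 of the 7 tested genes were called lower, none higher, and CXCL16 and CCL28 were not called. Since this contrast chose the family, nothing is read from those counts.

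**Figure D2:**
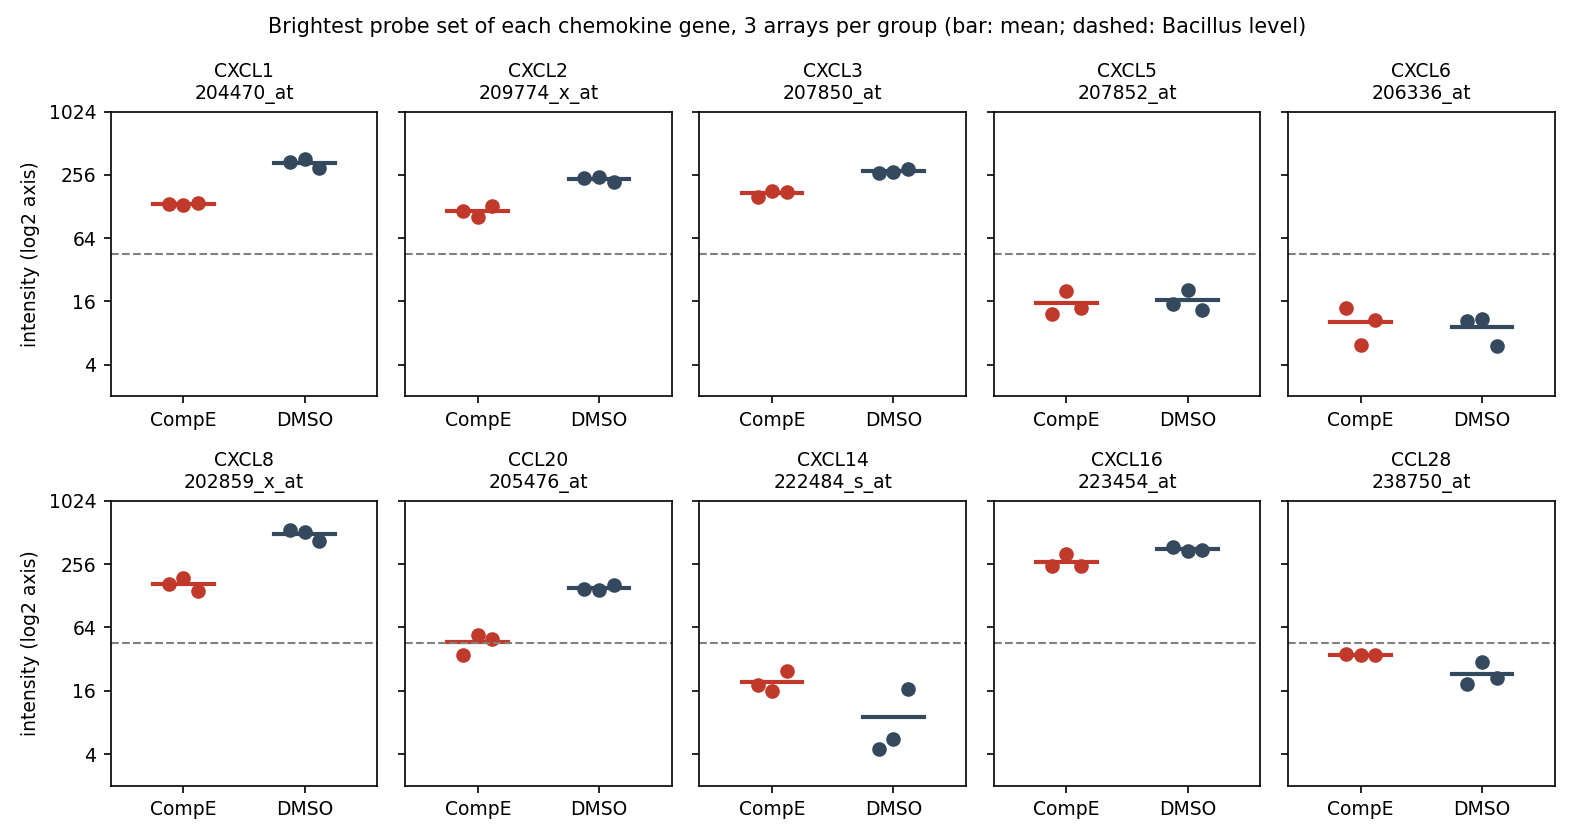
Intensity of the probe set standing for each of the 10 chemokine genes on every array, on a log axis, with CompE arrays left of DMSO arrays, a line at each group mean and a dashed line at the background level of 45.7. CXCL1, CXCL2, CXCL3, CXCL8, CCL20 and CXCL16 have all 3 CompE arrays below all 3 DMSO arrays, as do 13% of all genes tested. CXCL5, CXCL6, CXCL14 and CCL28 lie below background in both groups.

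CXCL8 (interleukin 8), the main neutrophil attractant of human epithelium, had intensities of 166, 190 and 143 in CompE cultures, against 545, 513 and 421 in DMSO cultures. The groups did not overlap, and the highest CompE array stood well under the lowest DMSO array. The means were 166 ± 23.6 in CompE and 493 ± 64.4 in DMSO (SD, n = 3 each), a log2 change of -1.57 (SE 0.14, 95% interval -1.92 to -1.22), so that 33.7% of the DMSO signal was left. Probe set 202859_x_at gave these values, and its suffix marks probes that can bind other transcripts. The 211506_s_at probe set had 35.7, 38.5 and 24.5 in CompE, against 96.2, 79.3 and 75.4 in DMSO. It too did not overlap and, with CompE below background, was at least 1.82-fold lower. Both CXCL8 probe sets were lower in CompE, and the second gives only a bound on the size.

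CXCL1, an ELR ligand of CXCR2 also known as GRO-alpha, had 136, 132 and 138 in CompE cultures, against 342, 360 and 296 in DMSO cultures. The CompE arrays lay within a few units of each other and far under every DMSO array. Means were 135 ± 3.22 in CompE and 333 ± 32.9 in DMSO (SD, n = 3 each), with a log2 change of -1.29 (SE 0.08, interval -1.50 to -1.09). CXCL2, the close paralogue GRO-beta, had 115, 102 and 130 in CompE, against 239, 244 and 218 in DMSO. Again no array of one group reached the other. Its log2 change was -1.02 (SE 0.10, interval -1.27 to -0.77), 2.03-fold lower. CXCL3, the paralogue GRO-gamma, had 158, 179 and 176 in CompE, against 266, 272 and 289 in DMSO. The gap between its groups was narrower than for CXCL1 or CXCL2, at a log2 change of -0.69 (SE 0.07, interval -0.86 to -0.52) or 1.61-fold lower, and the groups still did not overlap.

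Signals of CXCL1, CXCL2 and CXCL3 may not be fully separate. The genes are close paralogues, and the CXCL2 value comes from 209774_x_at, whose suffix marks probes that can bind other transcripts. The other CXCL2 probe sets, 230101_at and 1569203_at, were below background in both groups, and their groups overlapped. The lower CXCL2 signal therefore rests on 1 probe set. When the kept probe sets of CXCL2 were averaged, its change was -0.60.

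CXCL5 (ENA-78) and CXCL6 (GCP-2), the remaining ELR members, were below background in both groups in every probe set. CXCL6 had 13.9, 6.14 and 10.6 in CompE, against 10.4, 11.0 and 6.02 in DMSO, and the CXCL5 probe set 207852_at had 12.3, 20.3 and 13.8 in CompE, against 15.1, 20.8 and 13.3 in DMSO. Groups overlapped for both, and no fold is given at such levels. Their promoter stretches printed above hold the same GGAATTTCC letters as those of CXCL1, CXCL2, CXCL3 and CXCL8.

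CCL20, the ligand of CCR6, had 34.7, 53.9 and 50.1 in CompE cultures, against 149, 145 and 161 in DMSO cultures. The DMSO arrays agreed closely, while the CompE arrays lay on both sides of the background level. The means were 46.2 ± 10.2 in CompE and 152 ± 8.79 in DMSO (SD, n = 3 each), and the log2 change was -1.74 (SE 0.17, interval -2.16 to -1.31). Measured as log2 means, the CompE group was below background, so CCL20 was at least 3.32-fold lower.

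CXCL16, whose soluble form attracts CXCR6-bearing T cells, had 244, 318 and 248 in CompE cultures, against 376, 338 and 352 in DMSO cultures. No CompE array reached a DMSO array, although CompE replicate 2 was nearest to them. Non-overlap in this direction held for 13% of all genes tested. The log2 change was -0.40 (SE 0.12, interval -0.69 to -0.12), 1.32-fold lower, and was not called. Over 14 alternative settings CXCL16 was called in 4, each time as lower. It was at -0.53 without CompE replicate 2 and at -0.55 centred on the hybridisation controls. The others were the fits with the lowest 60% left out and with a trended, robust variance, both at -0.40.

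CCL28 was below background in all 3 probe sets and both groups. The kept probe set, 238750_at, had 35.7, 34.9 and 35.0 in CompE, against 18.3, 29.8 and 21.2 in DMSO. The CompE arrays were higher there without overlap, at a log2 change of 0.64 (SE 0.18) that was not called. Non-overlap in this direction was not counted over all genes. Its mean log2 was 5.14 in CompE and 4.50, under the filter limit of 4.61, in DMSO. The CompE arrays thus carried this probe set past the filter, and nothing is read from its rise. Without DMSO replicate 2 the change was 0.83 and called. The other CCL28 probe sets, both left out by the filter, were dimmer on average in CompE. CXCL14, a chemokine with antimicrobial activity, was below background throughout and its probe sets disagreed, with 222484_s_at brighter on average in CompE and the others dimmer. Probe set 237038_at had 0.78, 7.71 and 1.56 in CompE, against 29.6, 22.7 and 35.7 in DMSO, without overlap.

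**Figure D3:**
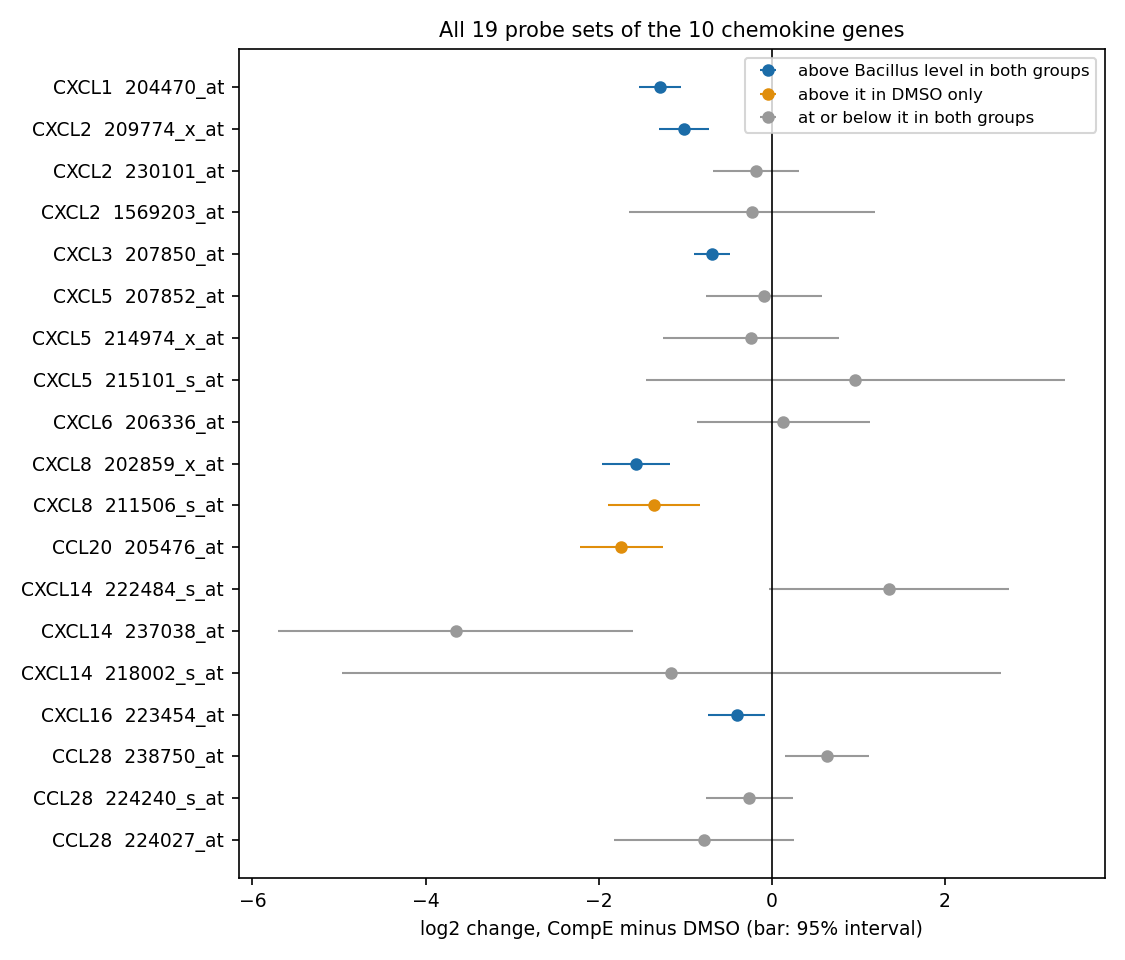
Log2 change, CompE minus DMSO, of each of the 19 probe sets, with 95% intervals from a fit over all probe sets, coloured by whether the probe set lay above the background level in both groups, in DMSO only or in neither. Every probe set that is not grey lies left of 0, from -1.74 for CCL20 to -0.40 for CXCL16, while the widest intervals belong to grey probe sets below background.

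Set side by side, the ELR members and CCL20 (7 genes) had 12 probe sets, of which 7 passed the filter and 6 were called lower, against 1.55% of all probe sets tested. The choice of the family fixed that count, and nothing is read from it. The 5 tested genes of this class had a median log2 change of -1.29, with a range of -1.74 to -0.69. CXCL14, CXCL16 and CCL28 had 7 probe sets, of which 2 passed the filter and none was called, and the 2 tested genes had changes of -0.40 and 0.64. Over all 14308 genes the median was 0.02. With 2 genes on that side, 1 of them below background and kept through CompE alone, the classes were not tested against each other.

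The ELR genes lie together on the long arm of chromosome 4. In the order of the annotation CXCL8 is followed by CXCL6, PF4V1, CXCL1, PF4, PPBP, CXCL5, CXCL3 and CXCL2, 9 genes in all. Of 31 listed neighbours 19 were tested, 2 rose, 2 fell, and their median log2 change was -0.003. EREG, the epidermal growth factor receptor ligand epiregulin, lies 3 genes past CXCL2. It had 524, 448 and 440 in CompE, against 1104, 1087 and 1095 in DMSO, and fell by 1.22 on the log2 scale (SE 0.08, adjusted p = 0.0019). The groups were far apart, and MTHFD2L, which lies between CXCL2 and EREG, did not pass, at a log2 change of -0.09. PF4, a platelet chemokine gene inside the cluster with the near-identical copy PF4V1 beside it, was at least 1.76-fold lower (adjusted p = 0.0354). RASSF6, which borders CXCL8 on the other side, rose by 0.60 (adjusted p = 0.0165), although its other probe set was at 0.11. BTC, a ligand of the same receptor, did not pass, at -0.34. COX18, named after its values were seen, was the other rise, at 0.26 (adjusted p = 0.0493), and at 0.12 (adjusted p = 0.155) where arrays were centred on the hybridisation controls. PF4 lost its call in 5 of the 6 fits that left out 1 array, all but that without CompE replicate 2, and RASSF6 in 4, all but those without CompE replicate 3 and DMSO replicate 1, and the highest adjusted p was 0.110 and 0.0699, each without DMSO replicate 2. COX18 lost it in all 6, up to 0.157 without CompE replicate 1.

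**Figure D4:**
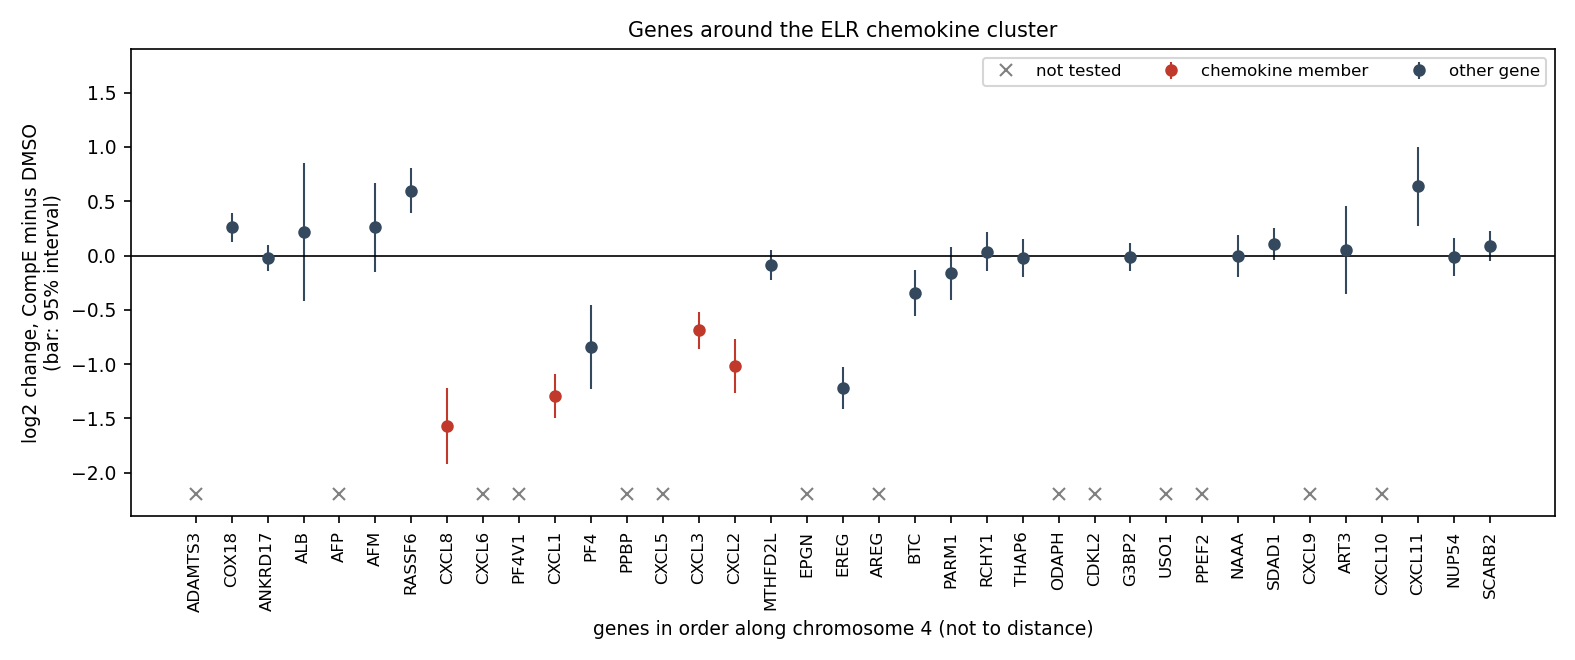
Log2 change, CompE minus DMSO, with 95% intervals, for 37 genes in their order along chromosome 4, not to distance, with chemokine members coloured and genes that were not tested as crosses. CXCL8, CXCL1, CXCL3, CXCL2, PF4 and EREG lie below 0 among neighbours that mostly lie near it.

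A list of cytokines that induce these chemokines, with receptors and signalling genes, had 4 lower and none higher of 27 tested. Its median was -0.10. The list also holds inhibitors: IL1RN, below background in both groups, was at -0.96 and IRAK3 at 0.20, and neither passed. Of the 27, 21 were below 0, and with limma before adjustment 8 lower, IL1RN among them, and none higher had p under 0.05. Here and in the lists that follow, counts before adjustment and of genes below 0 have no share of all genes beside them. Nothing is read from those counts. IL33, an alarmin of the interleukin 1 family stored in epithelial nuclei, had 469, 399 and 503 in CompE, against 1174, 1400 and 1238 in DMSO. It fell by 1.48 (SE 0.11, adjusted p = 0.0027), and its groups were far apart. IL18, an epithelial cytokine of the same family, fell by 0.63 (adjusted p = 0.0085), and TNFRSF1A, the main receptor of tumour necrosis factor, by 0.42 (adjusted p = 0.0161). IRAK2, a kinase that acts below interleukin 1 receptors and was picked after its values were seen, fell by 0.48 (adjusted p = 0.0163). With the mean of its probe sets IRAK2 was at -0.33 and did not pass (adjusted p = 0.0933). IL1B and IL1A were picked with their values in view. IL1B did not pass, at -0.19, with 96.0, 108 and 130 in CompE, against 119, 129 and 131 in DMSO. IL1A, below background in both groups, was at -1.17 without overlap and did not pass (adjusted p = 0.0501). TNF was too dim to be tested. Without CompE replicate 1 the call of IL18 ended (adjusted p = 0.0506). TNFRSF1A kept its call in the fits without CompE replicates 2 and 3 and IRAK2 in those without DMSO replicates 1 and 2. Both lost it in the other 4 fits that left out 1 array, with adjusted p up to 0.0699 without DMSO replicate 3 and 0.0679 without CompE replicate 1.

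In the limma comparison none of the 15 tested NF-kB subunits, inhibitors and kinases passed. Before adjustment 3 lower and 1 higher had p under 0.05, and with a trended, robust variance 2 passed, both lower. Centred on the hybridisation controls 2 passed, both lower, and with the mean of probe sets 1 passed, lower. With the lowest 60% left out, 1 passed as higher and 1 as lower. RELA, an activating subunit of NF-kB, had 1150, 1151 and 1021 in CompE, against 1089, 1093 and 1103 in DMSO. Its groups overlapped, at a log2 change of 0.01. NFKB1 was at 0.07 and the feedback inhibitor NFKBIA at -0.15, and neither passed. The nearest to the threshold was TNIP1, an adaptor that restrains the pathway, at -0.32 (adjusted p = 0.0859), with its other probe set at 0.32. Centred on the hybridisation controls, TNIP1 was at -0.46 and passed (adjusted p = 0.0380). The lowest log2 change of the list was that of NFKB2, at -0.50 (adjusted p = 0.165). RELA, NFKB1, NFKBIA and NFKB2 were named after their values were seen.

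AP-1 and C/EBP factors moved in both directions, with 5 lower and 1 higher of 11 tested and a median of -0.20. JUN had 1467, 1420 and 1480 in CompE, against 884, 905 and 829 in DMSO, and rose by 0.74 (SE 0.05, adjusted p = 0.0026), with its 4 probe sets at 0.50 to 1.05. FOS, its partner in AP-1, had 59.3, 65.4 and 56.6 in CompE, against 161, 133 and 125 in DMSO, and fell by 1.20 (SE 0.11, adjusted p = 0.0052). Neither gene had overlapping groups, so these subunits of 1 dimer moved in opposite directions. FOSL1 fell by 0.49 (adjusted p = 0.0156). ATF3, CEBPB and CEBPD, picked with their values in view, fell by 0.82, 0.37 and 0.33 (adjusted p = 0.0318, 0.0318 and 0.0301). With the mean of its probe sets ATF3 was at -0.59 and did not pass (adjusted p = 0.075). All 4 lost their calls when single arrays were left out: FOSL1 in all fits but those without CompE replicate 2 and DMSO replicate 3, ATF3 in all but that without CompE replicate 2, and CEBPB and CEBPD in all 6. The highest adjusted p was 0.0681 for FOSL1 without DMSO replicate 2, 0.109 for ATF3 without CompE replicate 1, 0.0997 for CEBPB without DMSO replicate 1 and 0.101 for CEBPD without DMSO replicate 3.

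Of 20 other tested epithelial genes that NF-kB induces, 3 fell and 1 rose, with a median of -0.08. IER3, an early response gene, had 782, 801 and 652 in CompE, against 1372, 1240 and 1280 in DMSO, and fell by 0.80 (adjusted p = 0.0106). LCN2, the siderophore-binding lipocalin of inflamed mucosa, fell by 0.73 (adjusted p = 0.0215). LIF, a cytokine picked with its values in view, fell by 0.42 (adjusted p = 0.0221). CD74, the invariant chain of antigen presentation, was the 1 that rose, by 0.70 (adjusted p = 0.0062), but its other probe set stood at -0.57, and with the mean of its probe sets CD74 was at 0.07 and did not pass (adjusted p = 0.742). The call of IER3 ended without DMSO replicate 3 (adjusted p = 0.0502). LCN2 kept its call only without DMSO replicate 1 and LIF only without CompE replicate 3. In the other 5 fits without 1 array adjusted p went up to 0.0856 without CompE replicate 1 and 0.0827 without DMSO replicate 3.

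On the receiving and processing side, none of 9 tested chemokine receptors passed with limma, with 2 lower and 1 higher where p under 0.05 was taken without adjustment, and 1 lower with a trended, robust variance. CXCR1, which binds CXCL8 and was picked with its values in view, had 312, 287 and 348 in CompE, against 352, 426 and 382 in DMSO. The CompE arrays were lower without overlap, at a log2 change of -0.29 that did not pass (adjusted p = 0.156). CXCR2, CCR6 and CCR10 were too dim to be tested. XCR1 came nearest, at -0.62 (adjusted p = 0.0989), below background. Of 16 tested proteases that shed or trim chemokines 3 fell and none rose, with a median of -0.11. DPP4, which clips the ends of several chemokines, had 301, 321 and 277 in CompE, against 511, 457 and 496 in DMSO, and fell by 0.71 (adjusted p = 0.0080), with its 3 probe sets at -0.97 to -0.71. ADAM19 was at least 1.47-fold lower (adjusted p = 0.0080). Its CompE mean log2 of 4.58 was under the filter limit of 4.61, so its DMSO arrays carried it past the filter. With no filter it was called as well (adjusted p = 0.0299). FAP was at least 1.28-fold lower (adjusted p = 0.0443), a call lost in each of the 6 fits without 1 array, up to 0.116 without DMSO replicate 2. ADAM10 and ADAM17, the sheddases of CXCL16, did not pass, at 0.11 and -0.10, named after their values were seen. Of the 6 tested genes among the other chemokines, PF4 alone passed.

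With limma none of 10 tested leukocyte markers passed (without adjustment, 2 lower and 1 higher had p under 0.05), 7 of the 10 were below 0 with a median log2 change of -0.23, and their summed intensity was 552 to 599 on CompE arrays and 596 to 718 on DMSO arrays. The nearest was ITGAX, at -0.29 (adjusted p = 0.123), and at -0.43 (adjusted p = 0.0329) where arrays were centred on the hybridisation controls. Of 10 tested fibroblast and endothelial markers FAP alone passed, with a median of -0.06 and sums of 597 to 623 in CompE and 559 to 705 in DMSO. Of the 14 colon epithelial markers 3 rose and 1 fell, with a median of 0.06. MUC2, the goblet cell mucin, rose by 1.05 (adjusted p = 0.0016), TFF3, a peptide secreted with it, by 0.60 (adjusted p = 0.0049) and CDX2, an intestinal transcription factor, by 0.43 (adjusted p = 0.0087). CDH17, an intestinal cadherin picked with its values in view, fell by 0.31 (adjusted p = 0.0229), and lost its call in each of the 6 fits without 1 array, up to 0.0891 without DMSO replicate 2. The part of these markers in the chemokine values was not tested.

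**Figure D5:**
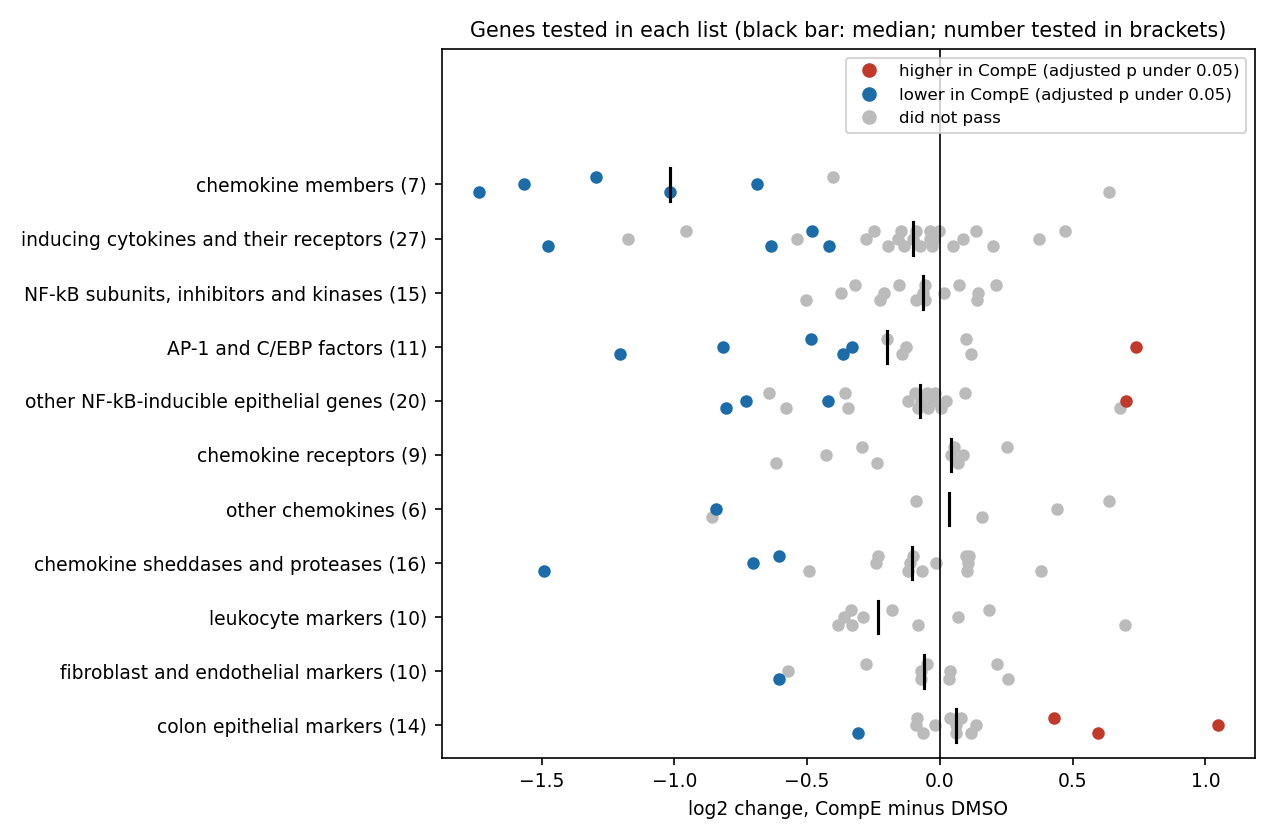
Each point is the log2 change, CompE minus DMSO, of 1 tested gene, with a row for the chemokines and for each of 10 gene lists (the chromosome neighbours are left out), coloured by whether the gene was called higher, lower or not called, and a bar at each row's median. The rows of NF-kB subunits, inhibitors and kinases, of chemokine receptors and of leukocyte markers hold no called gene, while the AP-1 and C/EBP row holds 1 higher and 5 lower.

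The 5 genes outside the family with the highest Pearson correlation with CXCL8 over the 6 arrays were MGST1, CCDC163, TRIM2, PRSS3P2 and ANXA1, each with r = 0.998. The 6 points fall into the CompE and the DMSO arrays, which differ in CXCL8 to begin with. Their log2 changes ran from -0.10 for MGST1, a glutathione transferase, to -1.51 for ANXA1, the phospholipid-binding annexin A1. ANXA1 averaged 190 in CompE and 543 in DMSO.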

How the data were processed

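RNA of 6 LS174T cultures, 3 with CompE and 3 with DMSO, was measured on 1 array each, and groups came from the sample titles. Per the series design text the authors amplified the RNA with a 3′ IVT kit and normalized the arrays with dChip. What they deposited is a linear intensity per probe set. Whether dChip read mismatch probes is not stated by these sources.

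Intensities below 1 (0.768% to 0.902% of an array) were set to 1 and log2 was taken, with no further scaling. The 62 control probe sets and the lowest 40% by mean log2 (under 4.61, an intensity of 24.4) were left out. Platform annotation gave 1 gene to 41091 probe sets, several to 1800 and none to 11721. Of the probe sets with 1 gene, 41043 took their symbol from RefSeq by gene identifier, whether or not it differed. This left 26962 probe sets and 14308 genes, each represented by its brightest probe set.

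Groups were compared with limma 3.58.1 in R 4.3.3 (lmFit, eBayes, two-sided, no covariate). P-values were adjusted by Benjamini-Hochberg over all genes, and the procedure was tested on simulated data. Background was the 95th percentile (log2 5.51) of 27 Bacillus probe sets, and folds against a group below it are lower bounds, given as "at least". The number of arrays limits precision, with a median SE of 0.08.

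The members, the 11 gene lists and the tests were chosen with earlier results of these data known. Named by rule were all members, HES1, up to 3 called genes per list with the smallest p (or the nearest to the threshold) and the 5 genes most correlated with CXCL8. Further genes of the lists, BTC and MTHFD2L among them, were named outside that rule with their values in view. Promoter sequences are those of RefSeq, scanned in Python 3.11.15 and aligned with Biopython 1.88. Alternatives were other filters, floors, scalings, probe set rules and variance models, a replicate block and leaving out each array.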

Additional observations from a re-analysis of the deposited data

How the results depend on the processing

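Over the alternatives the log2 change ran from -1.71 to -1.46 for CXCL8, -1.88 to -1.54 for CCL20, -1.44 to -1.23 for CXCL1, -1.16 to -0.60 for CXCL2, -0.83 to -0.63 for CXCL3, -0.55 to -0.34 for CXCL16 and 0.48 to 0.83 for CCL28, whose other probe sets were below 0. The same contrast chose the family, so these ranges describe the processing and support nothing.

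The count of genes past the threshold, 1021, was 363 with no filter, 1751 with the lowest 60% left out, 2254 with a trended, robust variance and 252 to 519 with 1 array left out. Centred on the hybridisation controls it was 1892, of which 340 were higher and 1552 lower, against 653 higher and 368 lower in the authors' scaling, and the median of all genes moved to -0.12. The median of the ELR members and CCL20 was -1.02 with no filter, -1.44 when centred on those controls and -1.38 to -1.23 with 1 array left out. The median of CXCL14, CXCL16 and CCL28, 0.12 over its 2 tested genes, changed sign in some settings: it was 0.64 with no filter, -0.40 with the lowest 60% left out, where CXCL16 alone remained, -0.027 when centred on the controls and 0.06 to 0.20 with 1 array left out. The cause of these shifts was not tested.

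Deviations from the group means correlated at 0.025, -0.104 and -0.021 between arrays with the same replicate number. Between arrays with different numbers they correlated at -0.103 to 0.122. With 3 arrays per group this cannot decide whether the numbers pair the cultures. With the replicate number as a block, 102 genes passed, 70 of them higher, and CXCL2, CXCL3 and CCL20 were not among them.

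Of the 26 called genes named beside the chemokines, 11 kept their call without each array in turn and 22 lost it with the block. Signals below background limit what can be said of CXCL5, CXCL6, CXCL14 and CCL28, and 3 arrays per group limit precision. Depth has no counterpart in array intensities.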
